A study of Mus musculus with 8 samples.

Results

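The V1 sector is the part of the vacuolar proton pump (V-ATPase) that faces the cytosol and burns ATP. The 8 genes described here encode its subunits in the forms that most cells use: Atp6v1a, Atp6v1b2, Atp6v1c1, Atp6v1d, Atp6v1e1, Atp6v1f, Atp6v1g1 and Atp6v1h. They were taken by symbol from a table of 24940 genes, which lists each of the 8 once, and all 8 passed the filter on low values (at least 1 RPKM, reads scaled to exon length and library size, in at least 2 libraries). The cells were bone marrow-derived macrophages, osteoclast precursors grown from the marrow of C57BL/6 mice aged 6 to 8 weeks with the growth factor M-CSF at 30 ng/ml. They carried a short hairpin named NCsh or TMBIM6sh and were given RANKL, the cytokine that drives osteoclast formation, at 100 ng/ml for 24 h or no RANKL, which makes 4 groups of 2 libraries. Every sample has the same protocol text, so the groups rest on the titles and treatment labels, and no separate culture time is given for the groups without RANKL. NCsh is not spelled out, the promoter and vector of the hairpins are not given in the sources used here, and since each side has 1 hairpin name, lower Tmbim6 and side effects of the hairpin cannot be told apart. The labels do not say whether duplicates are separate animals, cultures or only libraries, so the p-values measure only the spread between these libraries, which may be technical.

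In the assembled pump, A and B subunits alternate in a ring and hydrolyse ATP, with the catalytic sites mainly on A. D and F form the central stalk that turns inside the ring, E and G form the peripheral stalks that keep the ring from turning, C ties the stalks to the membrane sector, and H couples hydrolysis to transport and silences V1 when it is detached. The turning stalk drives protons through the V0 sector in the membrane. Macrophages use the pump to acidify lysosomes and phagosomes, and osteoclasts also place it in the membrane facing bone, where the acid dissolves mineral.

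The libraries held 25475000 to 28595000 tags. Tmbim6, the gene that the hairpin is named for, was at 309 to 334 RPKM in the 4 NCsh libraries and at 10.0 to 11.7 RPKM in the 4 TMBIM6sh libraries. All 10 macrophage markers were detected, with Cd68 at 777 to 985 RPKM, and osteoclast markers were mixed: Acp5 (50.9 to 64.7 RPKM), Mmp9 (12.7 to 73.4) and Nfatc1 (5.58 to 6.92) were present, while the protease Ctsk stayed at or below 0.075 RPKM. The markers of erythroid cells and of mast cells and basophils summed to at most 0.316 and 0.014 RPKM. NCsh library 2 without RANKL stood apart by gene length: genes with under 1500 bases of exon had a median deviation of 0.11 (log2) from their own mean over the libraries and genes with 3000 bases or more -0.06, against -0.07 and -0.00 in library 1. The V1 genes span that range, from 631 exon bases in Atp6v1f to 4169 in Atp6v1a. Calls of V1 genes that turn on this library are described without it, whereas likeness of pattern to other genes used all 8 libraries.

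The V1 genes were among the well expressed genes of these cells, each resting on 1011 to 18108 tags per library, and their levels per length spread over a wide range. In NCsh libraries without RANKL, Atp6v1g1 (241 ± 31.9 RPKM, SD, n = 2), Atp6v1e1 (231 ± 22.5) and Atp6v1b2 (230 ± 4.30) stood highest, and their libraries overlapped. Atp6v1f (mean 136, libraries 119 and 152) and Atp6v1a (134 ± 3.40) followed, also without separation, then Atp6v1c1 (95.7 ± 4.43). Atp6v1h (57.4 ± 5.15) and Atp6v1d (47.5 ± 6.54) were lowest, and their libraries did not overlap. In TMBIM6sh libraries without RANKL the order was Atp6v1b2, Atp6v1e1, Atp6v1f, Atp6v1g1, Atp6v1c1, Atp6v1a, Atp6v1h and Atp6v1d. By these group means Atp6v1g1 went from rank 1 to rank 4 and Atp6v1a from rank 5 to rank 6. In unstimulated NCsh library 1 alone the order differed: Atp6v1b2 (227 RPKM) stood above Atp6v1g1 (219), and Atp6v1a (137) above Atp6v1f (119).

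**Figure D1:**
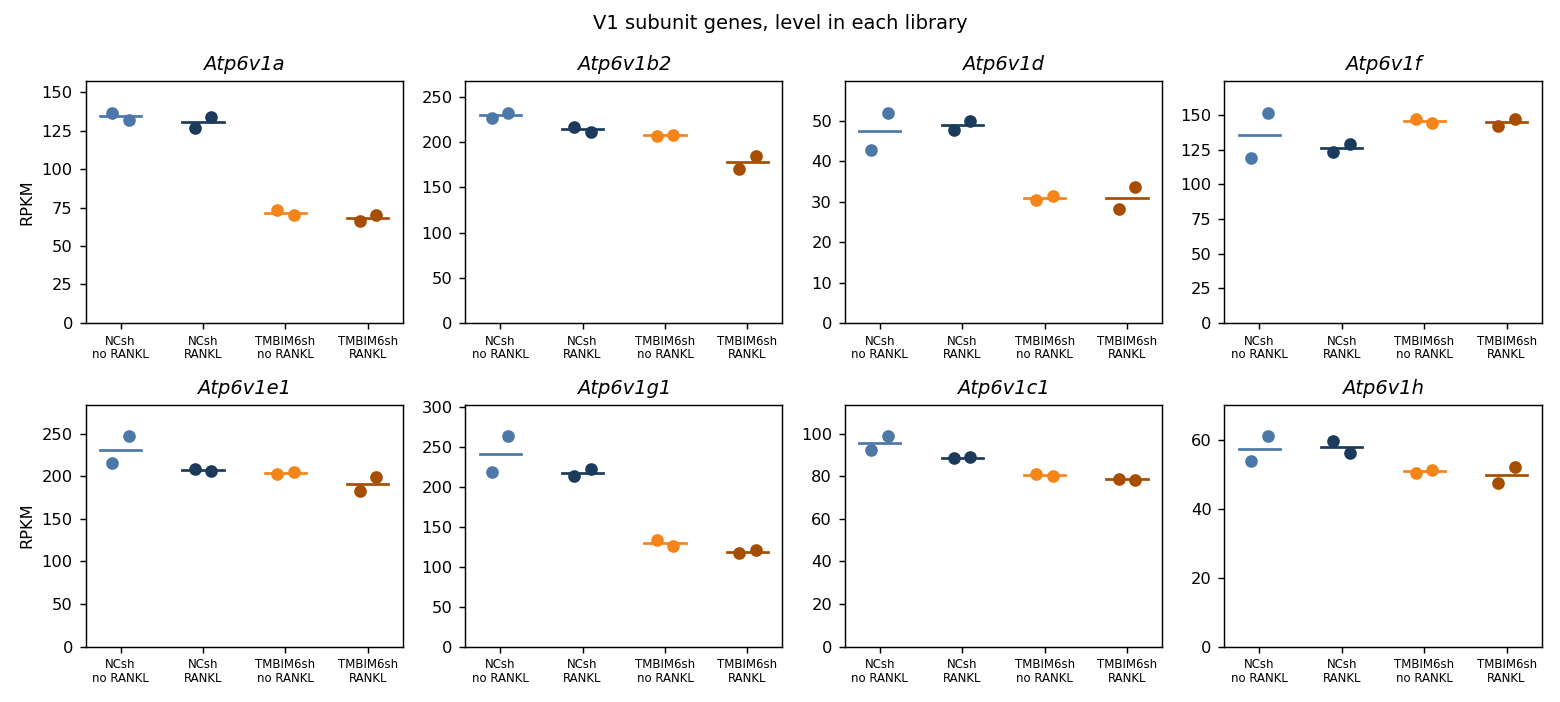
RPKM of each V1 gene (vertical axis, from 0) in the 4 groups of 2 libraries; dots are libraries and bars are group means. Atp6v1a, Atp6v1d and Atp6v1g1 are lower in all 4 TMBIM6sh libraries by a wide margin, while Atp6v1f is not lower in them.

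With the TMBIM6 hairpin, 3 V1 genes were lower by a large margin both without and with RANKL: the catalytic subunit gene Atp6v1a, the peripheral stalk gene Atp6v1g1 and the rotor gene Atp6v1d. The TMBIM6sh mean of Atp6v1a and Atp6v1g1 was 52.4% to 54.5% of the matching NCsh mean, and that of Atp6v1d 63.0% to 65.1%. Of the 8 genes, 4 fell without RANKL and 5 fell with it, where 13.8% and 19.7% of all 11040 genes tested fell, and 0 rose in either state, where 10.4% and 8.93% of all genes rose. These are bulk RNA values, in which fewer cells of a type and less RNA per cell cannot be told apart.

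The start regions of Atp6v1a and Atp6v1d, which fell, and of Atp6v1f, which did not, are shown because TFEB and related factors, which drive many lysosomal genes, bind a palindrome around an E-box core, the CLEAR element. Each sequence covers 250 bases before to 50 after the annotated start, in the direction of the gene, from RefSeq on GRCm38.p6. Atp6v1a lies at chr16:44139210-44139509 (minus strand), Atp6v1d at chr12:78861589-78861888 (minus strand) and Atp6v1f at chr6:29467533-29467832 (plus strand). Capitals mark the E-box core CACGTG and the GC box GGGCGG or its reverse complement.
Atp6v1a: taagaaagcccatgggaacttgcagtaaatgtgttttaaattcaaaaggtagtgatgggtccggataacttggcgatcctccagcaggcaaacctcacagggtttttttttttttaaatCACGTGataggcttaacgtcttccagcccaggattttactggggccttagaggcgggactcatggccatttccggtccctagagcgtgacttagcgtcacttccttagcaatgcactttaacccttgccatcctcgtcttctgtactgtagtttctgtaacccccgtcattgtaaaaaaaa
Atp6v1d: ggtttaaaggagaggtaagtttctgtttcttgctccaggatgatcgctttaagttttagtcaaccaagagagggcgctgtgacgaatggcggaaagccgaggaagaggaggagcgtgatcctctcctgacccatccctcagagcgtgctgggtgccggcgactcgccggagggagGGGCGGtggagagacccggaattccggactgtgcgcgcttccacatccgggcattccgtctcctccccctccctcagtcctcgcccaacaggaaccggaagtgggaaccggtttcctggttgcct
Atp6v1f: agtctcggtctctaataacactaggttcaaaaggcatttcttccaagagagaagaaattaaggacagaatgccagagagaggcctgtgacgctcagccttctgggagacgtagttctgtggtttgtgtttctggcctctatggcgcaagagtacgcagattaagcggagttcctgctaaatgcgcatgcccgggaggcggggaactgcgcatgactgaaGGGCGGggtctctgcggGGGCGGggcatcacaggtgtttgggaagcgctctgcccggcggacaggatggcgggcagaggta
Of the 8 genes 4 have an entry in this table, these 3 and Atp6v1e1, and Atp6v1b2, Atp6v1c1, Atp6v1g1 and Atp6v1h do not. The search covered both strands. Atp6v1a alone of the 4 held CACGTG, within the longer palindrome TCACGTGA, beginning 132 bases before the start; 7.15% of 32851 start regions held the E-box core and 0.974% the longer form, which contains the core. GGGCGG was in Atp6v1d, Atp6v1e1 and Atp6v1f and in 35.7% of all start regions, and the AP-1 motif TGANTCA was in none of the 4 and in 7.81% of all. A match is a string of letters in this window and not a measured binding site.

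Among the genes of the ATP-hydrolysing ring, Atp6v1a (chromosome 16, 44085404 to 44139259, minus strand, mm10) had 137 and 132 RPKM in NCsh libraries without RANKL and 127 and 134 with it. In TMBIM6sh libraries it had 73.3 and 70.1 RPKM without RANKL and 66.6 and 70.2 with it. Every TMBIM6sh library lay below every NCsh library, and the highest of them (73.3) was far from the lowest NCsh library (127). Atp6v1a fell by 0.90 on the log2(RPKM + 1) scale without RANKL (SE 0.0609, 95% interval -1.03 to -0.76, adjusted p = 2.49e-05) and by 0.92 with RANKL (SE 0.0609, adjusted p = 1.46e-05). Atp6v1b2, the other ring subunit (chromosome 8, 69088736 to 69113717, plus strand), had 227 and 233 RPKM in NCsh libraries without RANKL and 217 and 212 with it, and 207 and 208, then 171 and 185 RPKM in TMBIM6sh libraries. The libraries did not overlap here either, but the gap was small: 208 RPKM in the highest TMBIM6sh library against 212 in the lowest NCsh library. The log2 difference was -0.15 without RANKL (adjusted p = 0.12), which did not pass, and -0.27 with RANKL (SE 0.0617, adjusted p = 0.0105). That second call ended without NCsh RANKL library 1 (adjusted p = 0.0836), NCsh RANKL library 2 (adjusted p = 0.053) or TMBIM6sh RANKL library 1 (adjusted p = 0.0634).

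The central stalk genes went apart. Atp6v1d (chromosome 12, 78842982 to 78861638, minus strand) had 42.9 and 52.1 RPKM in NCsh libraries without RANKL, 47.7 and 50.1 with it, and 30.4 and 31.4, then 28.1 and 33.6 RPKM in TMBIM6sh libraries. It fell by 0.60 without RANKL (SE 0.102, adjusted p = 0.00265) and by 0.65 with RANKL (SE 0.102, adjusted p = 0.00141), with no overlap between the hairpins. Its stalk partner Atp6v1f (chromosome 6, 29467783 to 29470509, plus strand) had 119 and 152 RPKM in NCsh libraries without RANKL and 123 and 129 with it, and 147 and 144, then 142 and 147 RPKM in TMBIM6sh libraries. Without RANKL the NCsh libraries lay on both sides of the TMBIM6sh libraries (log2 0.11, 95% interval -0.11 to 0.33, adjusted p = 0.446). With RANKL both TMBIM6sh libraries were above both NCsh libraries, but the difference did not pass (log2 0.20, 95% interval -0.02 to 0.41, adjusted p = 0.162). Leaving out the unstimulated NCsh library 2, the log2 difference of Atp6v1f without RANKL was 0.28, and the gene passed as higher in both states. Leaving out the unstimulated NCsh library 1 instead, that difference was -0.06, and Atp6v1f passed as higher only with RANKL. Its direction without RANKL thus depended on which duplicate was kept. The 202 bases that a processed pseudogene shares with Atp6v1f at 95% identity or more make its level uncertain.

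The peripheral stalk genes also differed in size of response. Atp6v1g1 (chromosome 4, 63544765 to 63550701, plus strand) had 219 and 264 RPKM in NCsh libraries without RANKL and 214 and 223 with it. In TMBIM6sh libraries it had 134 and 127 RPKM, and 117 and 121 with RANKL, all far below the lowest NCsh library (214). It fell by 0.88 without RANKL (SE 0.0858, adjusted p = 1.26e-04) and by 0.87 with RANKL (SE 0.0858, adjusted p = 1.12e-04). A pair of processed pseudogenes that are not in the table match Atp6v1g1 at 95% identity or more over 357 and 287 bases, so how the authors' counting treated such reads bears on its level. Atp6v1e1 (chromosome 6, 120795244 to 120822698, minus strand) had 215 and 247 RPKM in NCsh libraries without RANKL, 209 and 206 with it, and 203 and 205, then 183 and 199 RPKM in TMBIM6sh libraries. Its libraries were separated by the hairpin only by 205 against 206 RPKM, and the log2 differences of -0.18 (adjusted p = 0.126) and -0.12 (adjusted p = 0.27) did not pass in limma. Voom on the recovered tags called the first (adjusted p = 0.0415). Leaving out the unstimulated NCsh library 1, the difference without RANKL was -0.28 in limma. Leaving out library 2 instead, which stood apart by gene length, it was -0.08, so its size turned on which was kept.

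Atp6v1c1, which bridges stalk and membrane sector (chromosome 15, 38661904 to 38692444, plus strand), had 92.6 and 98.8 RPKM in NCsh libraries without RANKL and 88.4 and 89.0 with it, and 81.2 and 80.2, then 78.8 and 78.4 RPKM in TMBIM6sh libraries. It fell by 0.24 without RANKL (SE 0.0566, adjusted p = 0.0129) and by 0.17 with RANKL (SE 0.0566, adjusted p = 0.0464). The first call ended when unstimulated TMBIM6sh library 1 or 2 was left out (adjusted p = 0.0833 and 0.0992). The second is fragile: it passed under 6 of 18 alternatives, and with any 1 library outside the unstimulated NCsh pair left out its adjusted p was 0.0921 to 0.175. Atp6v1h, the regulatory subunit (chromosome 1, 5083086 to 5162549, plus strand), had 53.8 and 61.0 RPKM in NCsh libraries without RANKL and 59.7 and 56.1 with it, and 50.5 and 51.2, then 47.4 and 52.0 RPKM in TMBIM6sh libraries. The libraries did not overlap, but the log2 differences of -0.17 (adjusted p = 0.143) and -0.22 (adjusted p = 0.0595) did not pass in limma. Voom on the recovered tags called the second (log2 -0.22, adjusted p = 0.018). Leaving out the unstimulated NCsh library 1, the difference of Atp6v1h without RANKL was -0.26 in limma. Leaving out library 2 instead, it was -0.08.

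**Figure D2:**
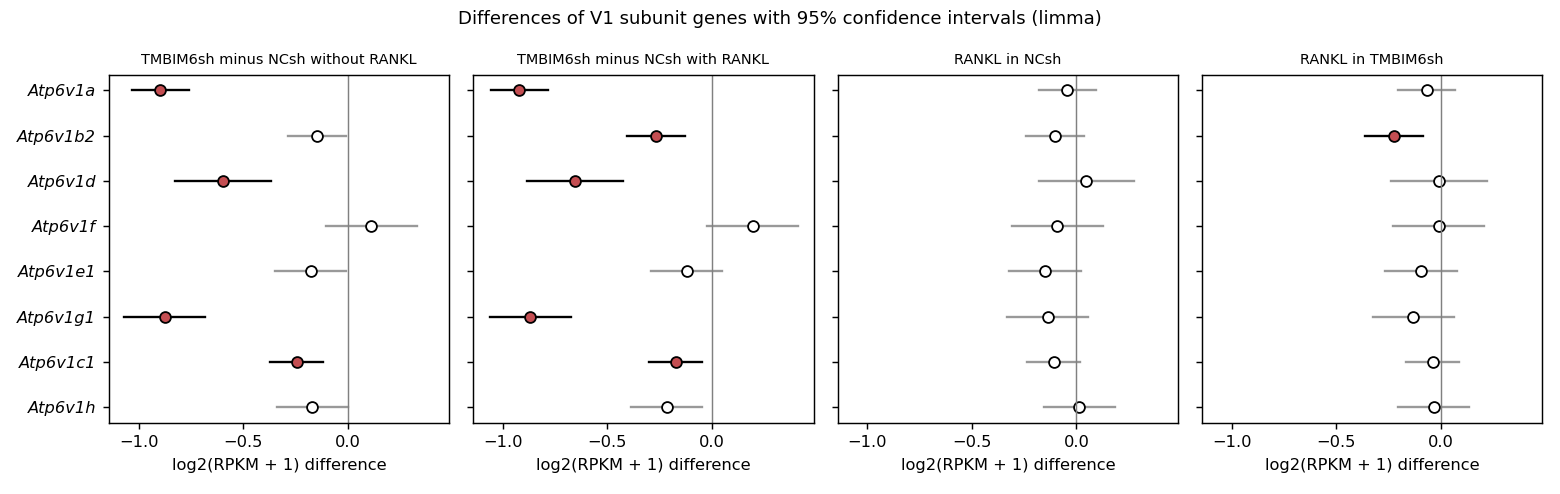
Differences in log2(RPKM + 1) of the 8 V1 genes in 4 comparisons, with limma's 95% confidence intervals as lines; filled dots passed an adjusted p of 0.05. The 3 genes Atp6v1a, Atp6v1g1 and Atp6v1d sit between -0.92 and -0.60 in both hairpin comparisons, while the RANKL comparisons lie near 0.

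Of all 11040 genes tested, 24.2% were called in either direction without RANKL and 28.6% with it. Of all genes, 13.8% were called lower in TMBIM6sh libraries without RANKL, where 4 of the 8 V1 genes were, and 19.7% with RANKL, where 5 of the 8 were. Called lower in both states were 11.0% of all genes and 4 of the 8 (Atp6v1a, Atp6v1g1, Atp6v1d and Atp6v1c1), and 3.82% of all genes and 3 of the 8 were also at a log2 difference of -0.5 or less in both. Called higher in both states were 6.56% of all genes and 0 of the 8. For calls of higher genes there were 0 of 8 members in either state by limma, 0 at an unadjusted p under 0.05 and 0 by voom. Voom called 5 of the 8 lower without RANKL and 6 with it, where it called 1804 and 2556 of all genes lower. The median log2 difference of the V1 genes was -0.21 without RANKL and -0.24 with it, beside -0.02 and -0.07 over all genes tested. In 7 of the 8 genes all 4 TMBIM6sh libraries lay below all 4 NCsh libraries, which held for 16.7% of all genes, and in 0 of the 8 above, as for 10.6% of all genes. State by state, 7 of the 8 had both TMBIM6sh libraries below both NCsh libraries, against 33.9% of all genes without RANKL and 42.7% with it. Both were above in 0 of the 8 without RANKL, against 27.7%, and in 1 with it, Atp6v1f, against 23.7%. With unstimulated NCsh library 1 left out more members were called lower in both states, and with unstimulated NCsh library 2 left out more were called with RANKL. The fewest were called without RANKL when either unstimulated TMBIM6sh library was left out. With RANKL the fewest were called when NCsh RANKL library 1 or 2, or TMBIM6sh RANKL library 1, was left out. The number of all genes called lower differed between these fits as well, so these member counts have no fixed background. Under median-ratio scaling of the libraries 1580 genes were called higher and 1680 lower with RANKL, in place of 986 and 2171, and 4 V1 genes were then lower and 1, Atp6v1f, higher (log2 0.27, adjusted p = 0.0474). After length adjustment 2014 genes were called higher and 1740 lower with RANKL, again with 4 V1 genes lower and Atp6v1f higher (log2 0.22, adjusted p = 0.00579).

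**Figure D3:**
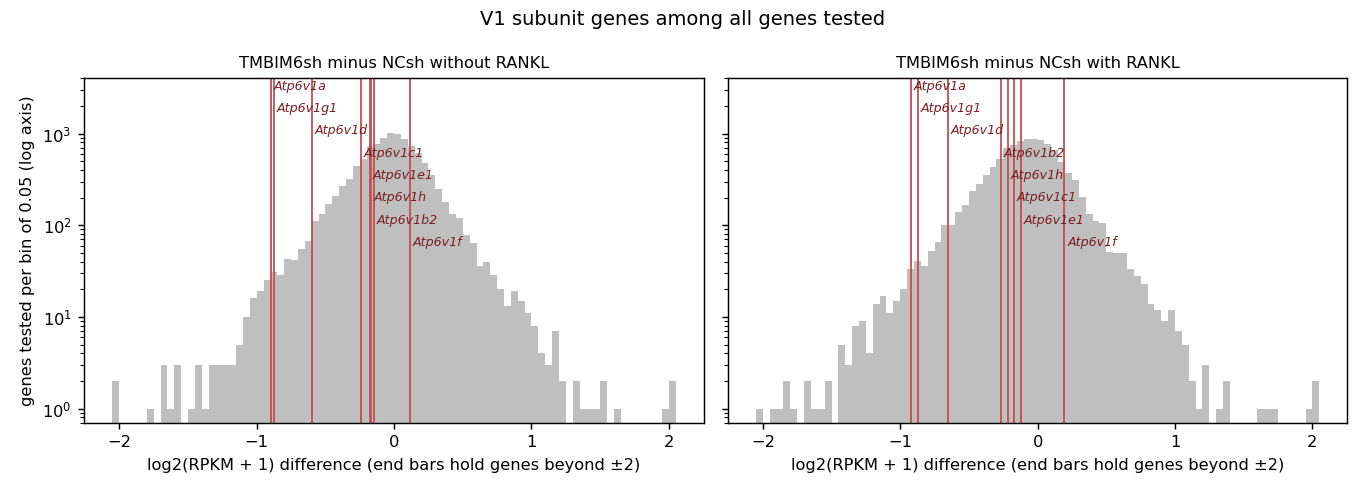
Number of tested genes (log axis) by their log2(RPKM + 1) difference between the hairpins, without and with RANKL; red lines mark the 8 V1 genes. Atp6v1a and Atp6v1g1 lie in the lower tail, with 0.942% and 1.01% of tested genes below them without RANKL, and the other 5 genes apart from Atp6v1d lie within the bulk.

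Markers of cell types moved with the hairpin too. The 10 macrophage markers, all present, summed to 9231 to 10839 RPKM in NCsh and 7532 to 8644 RPKM in TMBIM6sh libraries, most of it lysozyme (Lyz2). The 8 neutrophil markers summed to 22.6 to 28.1 and 11.5 to 15.5 RPKM, of which 7 never reached 1 RPKM and Ly6g was at 0 in every library; S100a8 carried the sum, and it fell in both states (log2 -0.86 and -0.85). The 9 osteoclast markers summed to 78.6 to 103 and 81.1 to 145 RPKM, with 5 of 9 under 1 RPKM in every library. Of the macrophage markers 1 of 10 fell without RANKL and 3 of 10 with it, beside 13.8% and 19.7% of all genes. Of 4 tested osteoclast markers Mmp9 alone was called, higher in both states (log2 0.74 and 1.22). The other 3 had log2 differences of -0.64 (Dcstamp), -0.22 (Acp5) and -0.07 (Nfatc1) without RANKL and 0.10, 0.00 and -0.15 with it. Dendritic (8.79 to 10.8 and 7.59 to 9.34 RPKM), lymphocyte (1.09 to 3.13 and 0.47 to 1.27) and stromal markers (2.27 to 2.97 and 2.64 to 3.24) summed to low levels. Itgax, the 1 tested dendritic marker, fell with RANKL (log2 -0.26) and was not called without it (-0.18). Cd79b, the 1 tested lymphocyte marker, fell in both states (-0.78 and -0.71), and of 2 tested stromal markers 0 were called. The part of these shifts in the V1 differences was not tested.

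The levels of subunit genes of the same structure also stood in different ratios in the libraries of the 2 hairpins. Atp6v1a stood at 0.567 to 0.633 of the Atp6v1b2 level, both per length, in the 4 NCsh libraries and at 0.337 to 0.390 in the 4 TMBIM6sh libraries. Atp6v1g1 stood at 1.02 to 1.08 of Atp6v1e1 in NCsh libraries and at 0.608 to 0.662 in TMBIM6sh libraries. Atp6v1d stood at 0.343 to 0.388 of Atp6v1f and at 0.197 to 0.228. In each of these 3 ratios the hairpins did not overlap, whereas Atp6v1c1 over Atp6v1b2 ran from 0.408 to 0.424 and from 0.386 to 0.461, with overlap. The ratios were chosen after the values were seen, so they are a description with no test. The 8 genes together summed to 1086 to 1239 RPKM in NCsh and 834 to 927 RPKM in TMBIM6sh libraries, and within that sum the share of Atp6v1f went from 10.8% to 12.3% up to 15.7% to 17.1%.

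**Figure D4:**
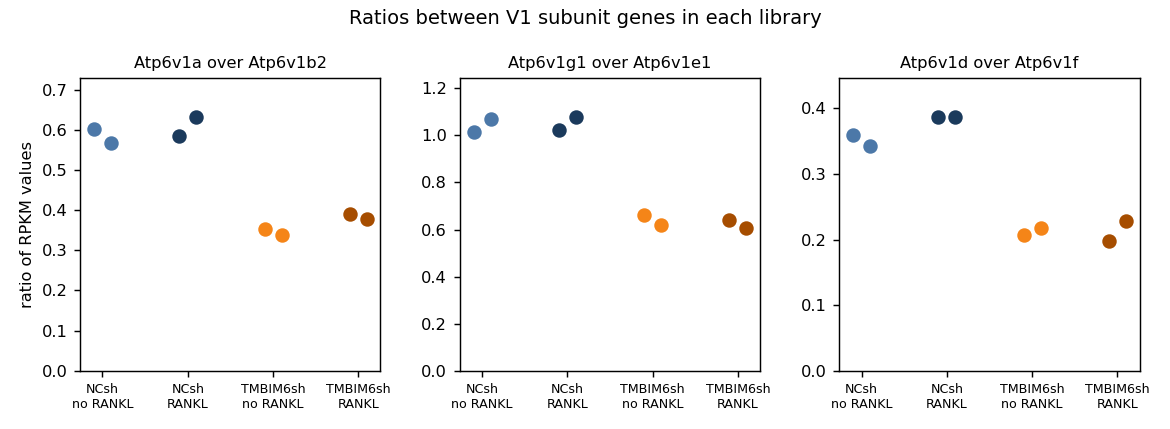
Ratio of RPKM values between V1 genes of the same structure in each library (vertical axis from 0): ring, peripheral stalk and central stalk. All 4 TMBIM6sh libraries lie below all 4 NCsh libraries in each panel.

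For RANKL at 24 h in NCsh libraries, 0 of 8 V1 genes were called by limma (background 15.0% in either direction, 3.98% lower and 11.0% higher), 0 at an unadjusted p under 0.05 and 0 by voom. The log2 differences ran from -0.15 in Atp6v1e1 (95% interval -0.32 to 0.02, adjusted p = 0.223) to 0.05 in Atp6v1d (95% interval -0.18 to 0.28, adjusted p = 0.794), with a median of -0.10 beside 0.06 over all genes. Atp6v1b2, Atp6v1c1 and Atp6v1e1 had both RANKL libraries below both libraries without it, as did 17.1% of all genes, and 0 members had both above, as did 39.0%. In the same comparison 6 of the 10 macrophage markers fell, among them Csf1r (log2 -0.51), and of 4 tested osteoclast markers Mmp9 alone was called, higher by a log2 of 1.18, with Acp5 at -0.02, Nfatc1 at 0.07 and Dcstamp at -0.29; their part in the V1 values was not tested. The count depends on the scaling and on gene length. Under median-ratio scaling 3 genes were lower (Atp6v1b2, Atp6v1c1 and Atp6v1e1). The calls over all genes were then 800 higher and 836 lower in place of 1214 and 439. After adjusting each library for exon length, a step chosen after seeing the data, 4 were lower (Atp6v1b2, Atp6v1c1, Atp6v1e1 and Atp6v1g1). The calls over all genes were then 898 higher and 1112 lower. The differences of Atp6v1e1, Atp6v1f and Atp6v1g1 turned on which unstimulated NCsh library was kept. With library 2 left out, the one that stood apart by gene length, they were -0.05, 0.08 and -0.003 (log2). With library 1 left out instead, they were -0.25, -0.26 and -0.27. Over all genes fewer were then called higher and more lower than in the main fit.

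In TMBIM6sh libraries RANKL lowered 1 of the 8 genes (background 6.89% lower and 8.53% higher), Atp6v1b2. Its mean was 208 ± 0.531 RPKM (SD, n = 2) before and 178 ± 10.3 RPKM after RANKL, a log2 difference of -0.22 (SE 0.0617, adjusted p = 0.0392). Voom also called this gene, and the call ended without a filter on low values, without the intensity trend and without each of 5 of the 8 libraries: NCsh RANKL library 1 or 2, unstimulated TMBIM6sh library 1 or 2, and TMBIM6sh RANKL library 1 (adjusted p = 0.0608 to 0.207 over these alternatives). The other 7 had log2 differences between -0.13 (Atp6v1g1) and -0.01 (Atp6v1d), and the median of all 8 was -0.05 beside 0.02 over all genes. In 4 genes (Atp6v1b2, Atp6v1c1, Atp6v1e1 and Atp6v1g1) both RANKL libraries lay below both others, as in 26.2% of all genes, and in 0 above, as in 32.2%. After adjusting for exon length 3 genes were lower, Atp6v1e1 and Atp6v1g1 beside Atp6v1b2, and over all 11040 genes 1241 were lower in place of 761. In the same comparison 6 of the 10 macrophage markers fell, among them Csf1r (log2 -0.69) and Mertk (-0.81). Of 4 tested osteoclast markers Mmp9 alone was called (log2 1.66), with Dcstamp at 0.44, Acp5 at 0.20 and Nfatc1 at -0.02. The part of these shifts in the V1 values was not tested.

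Whether the RANKL response differed between the hairpins was tested as an interaction. It called 0 of the 8 by limma, 0 at an unadjusted p under 0.05 and 0 by voom, against 0.00906% of all genes. The log2 interactions ran from -0.12 in Atp6v1b2 (95% interval -0.32 to 0.07, adjusted p = 0.748) to 0.08 in Atp6v1f (95% interval -0.23 to 0.39, adjusted p = 0.897). For Atp6v1a the value was -0.03 (95% interval -0.22 to 0.17, adjusted p = 0.96). No difference in the RANKL response of a V1 gene was thus detectable with 2 libraries a group.

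TFEB and its relatives form the MiT/TFE family, whose genes were measured as well. Tfeb was at 13.5 to 14.0 RPKM in NCsh libraries without RANKL and 10.8 to 11.5 in TMBIM6sh libraries; it fell by 0.28 (adjusted p = 0.0194), and by 0.36 with RANKL (adjusted p = 0.00534). Tfec, at 2.69 and 3.39 against 1.83 and 1.70 RPKM without RANKL, fell by 0.54 (adjusted p = 0.0137) and by 0.97 with RANKL (adjusted p = 5.49e-04). Mitf, a factor needed for osteoclasts, was lower in TMBIM6sh libraries with RANKL (log2 -0.42, adjusted p = 0.0291). Its NCsh libraries with RANKL were far apart, at 10.7 and 7.86 RPKM, against 6.96 and 6.34 in TMBIM6sh libraries. Tfe3 was higher in TMBIM6sh libraries without RANKL (log2 0.22, adjusted p = 0.0332). Of the 4 factors, 2 were thus lower and 1 higher without RANKL, and 3 lower and 0 higher with it, beside 24.2% and 28.6% of all genes called in either direction. RANKL raised Tfec in NCsh libraries (log2 0.79, adjusted p = 0.00332) and lowered Tfe3 in TMBIM6sh libraries (log2 -0.28, adjusted p = 0.0171).

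In the membrane sector and accessory subunits, 11 of 12 genes were tested and 2 fell with the hairpin in each RANKL state, with 0 higher, where 13.8% and 19.7% of all genes fell, so the count of this list is near the background. Both encode forms of subunit d, the collar on which the V1 rotor sits. Atp6v0d1, the common form, was at 106 and 109 RPKM in NCsh and 83.8 and 80.1 RPKM in TMBIM6sh libraries without RANKL (log2 -0.39, adjusted p = 0.00153), and fell by 0.33 with RANKL (adjusted p = 0.00309). Atp6v0d2, the form linked to osteoclast fusion, fell by 0.54 without RANKL (adjusted p = 5.86e-04) and by 0.77 with it (adjusted p = 7.04e-05). Tcirg1, the a3 subunit of the osteoclast pump, was at 105 to 126 RPKM in all libraries, with log2 differences of 0.03 and -0.03 (adjusted p = 0.812 and 0.769). The medians of this list were -0.06 and -0.07, beside -0.02 and -0.07 over all genes. RANKL lowered Atp6v0a1 in both hairpins (log2 -0.48 and -0.51) and Atp6v0d2 (-0.27 and -0.50), 2 of 11 genes in each, with 0 higher. Over all genes RANKL lowered 3.98% in NCsh and 6.89% in TMBIM6sh libraries, and raised 11.0% and 8.53%.

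The tissue-restricted V1 forms were at or near 0 apart from Atp6v1g2. Atp6v1b1, the form of kidney, reached 0.037 RPKM, Atp6v1c2 0.253 and Atp6v1g3 0.056, and Atp6v1e2 was listed at 0 in every library, which leaves room for up to 3 tags per library. Atp6v1g2, a form of nerve cells, was at 0.905 to 1.60 RPKM and did not pass in any comparison. No second form of A, D, F or H was in the list.

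Among genes that assemble the pump or work with it, calls went both ways, beside 10.4% of all genes higher and 13.8% lower without RANKL and 8.93% and 19.7% with it. Of 9 tested genes that assemble or regulate the pump 2 were higher and 1 lower without RANKL, and 2 higher and 3 lower with it. Oxr1 (log2 0.41 and 0.34) and Wdr7 (0.29 and 0.38), which is part of a complex that rejoins V1 and V0, were higher. Ncoa7, which binds V1, was lower (-0.64 and -0.72), and Dmxl2 (-0.35), a partner of Wdr7, and Tmem199 (-0.24) were lower with RANKL. RANKL raised Tmem199 in NCsh libraries (log2 0.34), 1 of 9, and 0 were called in TMBIM6sh libraries (background 15.4% in either direction). Of 6 tested partners of acid secretion Plekhm1 was higher with the hairpin (log2 0.30 and 0.26) and Ostm1, the partner of the chloride transporter ClC-7, lower with RANKL (-0.34). RANKL lowered Plekhm1 in both hairpins (log2 -0.34 and -0.37) and Ostm1 in TMBIM6sh libraries (-0.27), with 0 of the 6 higher. Of 9 tested genes of the Ragulator and Rag GTPases, which sense amino acids at the lysosome together with V1, the scaffold Lamtor3 alone was called: it was at 38.4 to 42.5 RPKM in NCsh and 66.0 to 70.1 RPKM in TMBIM6sh libraries (log2 0.75 and 0.71, adjusted p = 7.17e-05 and 8.40e-05). RANKL lowered Rraga in both hairpins (log2 -0.22 and -0.42) and Lamtor4 in NCsh libraries (-0.37), with 0 of 9 higher. The background for the RANKL counts of these lists was 3.98% lower and 11.0% higher in NCsh libraries. In TMBIM6sh libraries it was 6.89% lower and 8.53% higher.

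**Figure D5:**
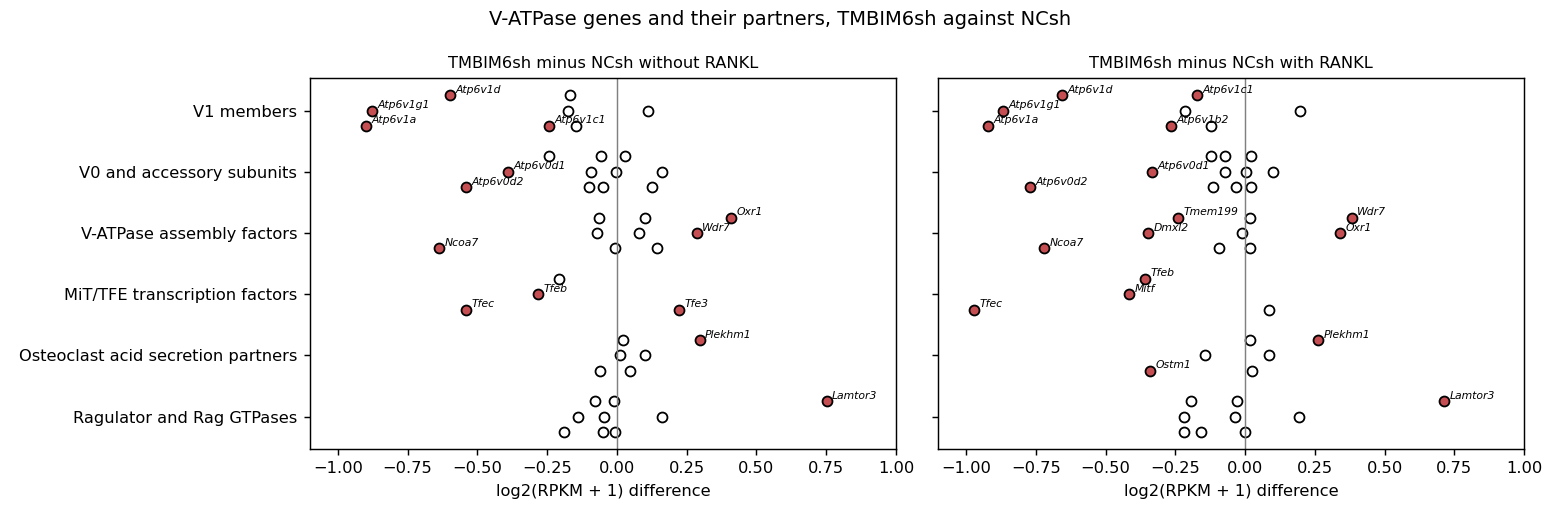
Log2(RPKM + 1) differences between the hairpins for the V1 genes and 5 related lists, without and with RANKL; each dot is a tested gene, and filled, named dots passed an adjusted p of 0.05. The V1 genes hold 4 and 5 called members, all to the left of 0, and Lamtor3 lies farthest to the right.

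The genes most like the mean of the V1 genes in their pattern were sought among 5971 genes that averaged 5 RPKM or more and had an SD of 0.1 or more on the log2 scale. That mean does not describe every member: the r of Atp6v1f with single other members ran from -0.63 (Atp6v1a) to 0.05 (Atp6v1e1). Likeness was Pearson's r with the mean log2(RPKM + 1) of the 8 genes over the 8 libraries, which share the hairpin difference and, for shorter genes, the length shift of NCsh library 2. The 5 highest were Tmem59 (r = 0.994), Derl1 (0.993), a part of the machinery that removes misfolded proteins from the endoplasmic reticulum, Ddit3 (0.993), the stress transcription factor CHOP, Crip1 (0.993), and Mt1 (0.991), a metallothionein. Derl1 was at 58.7 to 65.8 RPKM in NCsh and 41.2 to 47.4 RPKM in TMBIM6sh libraries. Ddit3 was at 41.3 to 52.1 and 24.3 to 27.3 RPKM. Tmem59 was at 119 to 128 and 94.8 to 104 RPKM, Crip1 at 62.3 to 72.7 and 36.0 to 42.3, and Mt1 at 175 to 227 and 80.7 to 102.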

How the data were processed

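The authors deposited RPKM values, made with HOMER's analyzeRepeats on mm10 gene models per the file headers: tags over exons on both strands, isoforms condensed to 1 row per gene, divided by exon length and library tags. The column heads read FPKM. HISAT2, HOMER and DESeq2 are named in the submitters' processing notes, without versions. The RPKM steps gave tags per gene (of 3078 to 3210 low values tried in each library, 100% came within 0.1 of a whole tag), and so the depth. A count of 0 allows up to 3 tags, for counting error only.

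Values were used as log2(RPKM + 1), which shrinks differences of low genes. limma 3.58.1 (R 4.3.3) fitted 1 mean per group over 8 libraries with an intensity trend, for 11040 genes at 1 RPKM or more in at least 2 libraries. P-values were adjusted over all of them (Benjamini-Hochberg, threshold 0.05). The fit was tested on simulated data. With 2 libraries against 2 the smallest two-sided exact permutation p is 0.333.

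All 8 members, Tmbim6, up to 4 called genes per related list and comparison, and the 5 genes nearest in pattern were named; marker and other genes were named after their values were seen. The members and lists were chosen with earlier results of these data known. Alternatives changed the pseudocount, filter, scaling, trend and libraries, or used voom on the recovered tags. Counting ignored strand. In GENCODE M21, Atp6v1e1 and Atp6v1h share 32 and 127 exon bases with Slc25a18 and Rgs20, which stayed at or below 0.65 and 0.069 RPKM. Transcripts matching a member at 95% identity over at least 200 bases were sought with blastn.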

Additional observations from a re-analysis of the deposited data

How the results depend on the processing

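Over 18 alternatives, of which the length adjustment was chosen after seeing the data, Atp6v1a, Atp6v1g1 and Atp6v1d stayed called lower in TMBIM6sh libraries in both RANKL states in every alternative; the highest adjusted p was 0.0264, for Atp6v1d without RANKL. No called difference of a member changed sign. Of 8 members, the number lower under RANKL in NCsh libraries, 0 as reported, was 3 under median-ratio scaling and 4 after length adjustment, and 0 to 3 with 1 library left out. The number lower under RANKL in TMBIM6sh libraries, 1 as reported, was 0 without a filter, 0 without the intensity trend and 3 after length adjustment, and 0 to 1 with 1 library left out. The number higher with the hairpin, 0 as reported, was 1 (Atp6v1f) after length adjustment without RANKL, and with RANKL 1 under median-ratio scaling, 1 in the fit of the 4 libraries alone and 1 after length adjustment. With 1 library left out it was 0 to 1 in both states, and the number lower was 3 to 6 in both, where 4 and 5 are reported; the lone library of a group is then assumed to vary like the others. The cause of these moves was not tested beyond what each alternative changes. Libraries with the same replicate number showed no visible shared effect (correlations of same-numbered deviations across genes -0.07 to 0.06). These correlations cannot settle whether the samples are paired, which the labels do not say. With the replicate block in limma 4 members were lower without RANKL and 4 with it, Atp6v1c1 being lost there (adjusted p = 0.0541), and the other counts did not change. The interaction could not be fitted from 4 libraries. Small differences such as those of Atp6v1e1 and Atp6v1h passed under some alternatives and not others; whether spread or depth limits them was not tested.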
